A study of Mus musculus with 18 samples.

Results

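The smooth muscle contractile genes are 10 genes of the contractile apparatus of smooth muscle: *Acta2*, *Actg2*, *Myh11*, *Tagln*, *Cnn1*, *Des*, *Lmod1*, *Mylk*, *Smtn* and *Synpo2*. They were taken by symbol as a reading of how much smooth muscle RNA each colon sample held, and they are 10 of the 47729 genes in the count table. All 10 passed the filter on low counts in each of the 3 comparisons. The 9 samples, numbered here as mice 1 to 9, were colon RNA from 3 mice in each of 3 groups, all on a C57BL/6 background. Naive WT mice (mice 1 to 3) were the control-treated WT mice. WT CAC mice (mice 4 to 6) were WT mice given the carcinogen azoxymethane (AOM, 10 mg/kg) followed by dextran sulfate sodium (DSS) at 2.5% over 3 cycles, a regimen that leads to cancer after colitis, or colitis-associated cancer (CAC). The *Cldn2*TG CAC group (mice 7 to 9) held Claudin-2TG mice on the same regimen, in which the villin promoter drives *Cldn2*, a tight junction gene, in the intestinal epithelium. There was no untreated *Cldn2*TG group, so *Cldn2*TG CAC against naive WT differs in both genotype and treatment. The protocol text deposited with the samples names AOM and DSS for the controls as well, so the label for treatment defined the naive group. The labels give the tissue only as colon, without the layers of the wall that were taken, and the age and sex of single mice are not given in the sources used here.

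The colon wall holds a circular and a longitudinal layer of smooth muscle beneath the mucosa, a thin muscularis mucosae at the base of the crypts, and smooth muscle around its vessels. In these cells calcium switches on myosin light chain kinase, phosphorylated myosin then pulls on actin filaments, and the filaments are anchored to dense bodies and intermediate filaments. Many genes of this apparatus share a regulatory element, the CArG box, bound by serum response factor with its partner myocardin.

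Sequencing depth was 14142711 to 22262546 counts per mouse after the 2 lanes of a library were added, so that 3 counts, the upper limit allowed by a count of 0, stand for less than 1 CPM (counts scaled to library size, with TMM factors). Mice 6, 7 and 9, all in the CAC groups, had the fewest (14142711, 14900807 and 14871987), with 4023472 to 5757674 on lane 2. Every other mouse had 19143664 or more. The lowest member, *Lmod1*, still had 116 counts in the mouse where it was lowest. The colon label was met by the 5 markers of colon epithelium (*Muc2*, *Car4*, *Car1*, *Slc26a3* and *Aqp8*), whose summed level was 3239 to 8978 CPM. *Xist*, which is transcribed from the inactive X chromosome, was at 214 CPM in naive WT mouse 1 and at most 0.203 CPM in the other 8 mice, and *Ddx3y*, on the Y chromosome, was at 0.149 CPM in mouse 1 and at 34.1 to 51.8 CPM in the others. Mouse 1 thus had the RNA pattern of a female and the other 8 that of males, although the study's methods describe the mice as matched for sex. Both comparisons with naive WT therefore hold 1 mouse of the other sex among the 3 controls, and the values that moved most without mouse 1 are given with the results below. Mitochondrial genes took 2.86% to 3.50% of counts in naive WT mice, 3.54% to 4.69% in WT CAC mice and 4.57% to 5.76% in *Cldn2*TG CAC mice. Their part in the differences below was not tested.

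As background to a group of genes that moved together, the promoters of the members were read for CArG boxes, written here as CC, then 6 bases of A or T, then GG. The pattern reads alike on both strands, so 1 search covered both. RefSeq (GRCm38.p6) windows of 300 bases, from 250 before to 50 after the start of a gene, were present for 7 of the 10 members, and *Actg2*, *Myh11* and *Tagln* had no entry. A box was found in 0 of these 7 windows, in 488 of all 27025 genes with a window (1.81%) and in 8 of 44 genes of a wider smooth muscle list described below (*Cnn2*, *Myl6*, *Myl9*, *Vcl*, *Ldb3*, *Fhl1*, *Dmd* and *Srf*). With 1 G or C allowed among the 6 inner bases, a looser form chosen after the exact search had found none in the members, *Acta2* was the only member with a match, against 11.3% of all genes and 15 of the 44. The 250 bases before the start are shown for *Acta2*, the member that matched, for *Myl9*, the regulatory light chain of its myosin partner, and for *Srf*, the factor that binds the box. Capitals mark boxes of the looser form in *Acta2* and exact boxes in the others, where a looser match is left in lower case (*Myl9* holds 1 beside its exact box).
Acta2: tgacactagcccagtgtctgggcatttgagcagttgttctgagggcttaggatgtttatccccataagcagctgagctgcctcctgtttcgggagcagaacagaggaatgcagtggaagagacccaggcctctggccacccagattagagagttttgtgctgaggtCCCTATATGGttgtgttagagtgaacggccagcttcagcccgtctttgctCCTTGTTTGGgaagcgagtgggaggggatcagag
Myl9: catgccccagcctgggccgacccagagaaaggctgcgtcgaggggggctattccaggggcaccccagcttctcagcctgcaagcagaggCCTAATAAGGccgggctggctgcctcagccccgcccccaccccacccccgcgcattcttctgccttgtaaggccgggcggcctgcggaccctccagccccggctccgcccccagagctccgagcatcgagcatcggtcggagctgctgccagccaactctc
Srf: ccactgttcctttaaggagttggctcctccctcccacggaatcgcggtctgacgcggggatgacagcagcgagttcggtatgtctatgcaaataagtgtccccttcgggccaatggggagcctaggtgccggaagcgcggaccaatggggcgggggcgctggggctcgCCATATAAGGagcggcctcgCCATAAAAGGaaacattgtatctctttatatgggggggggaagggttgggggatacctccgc
The *Acta2* sequence lies at chr19:34255374-34255623 on the minus strand and its boxes begin 84 and 34 bases before the start. The *Myl9* sequence lies at chr2:156775214-156775463 on the plus strand with its box 161 bases before the start, and the *Srf* sequence at chr17:46556163-46556412 on the minus strand with boxes at 82 and 62. A match describes the letters in the window and not binding, and a window without one says nothing of sites elsewhere in the gene.

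The contractile genes were highest in naive WT colons, and every *Cldn2*TG CAC mouse lay below every naive WT mouse for all 10. They made up 0.456%, 0.228% and 0.355% of all counts in naive WT mice 1, 2 and 3, 0.331%, 0.124% and 0.151% in WT CAC mice 4, 5 and 6, and 0.143%, 0.163% and 0.100% in *Cldn2*TG CAC mice 7, 8 and 9. WT CAC mouse 4 thus sat among the naive WT mice, while the other WT CAC mice sat with the *Cldn2*TG CAC mice. Of the 10 genes, 7 were at or above the lowest naive WT mouse in mouse 4, and none were in mice 5 or 6. Mouse 5 was at or below the highest *Cldn2*TG CAC mouse for 10 of 10 genes and mouse 6 for 8 of 10. In bulk RNA, fewer smooth muscle cells in the sample and less of these transcripts in each cell cannot be told apart.

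**Figure D1:**
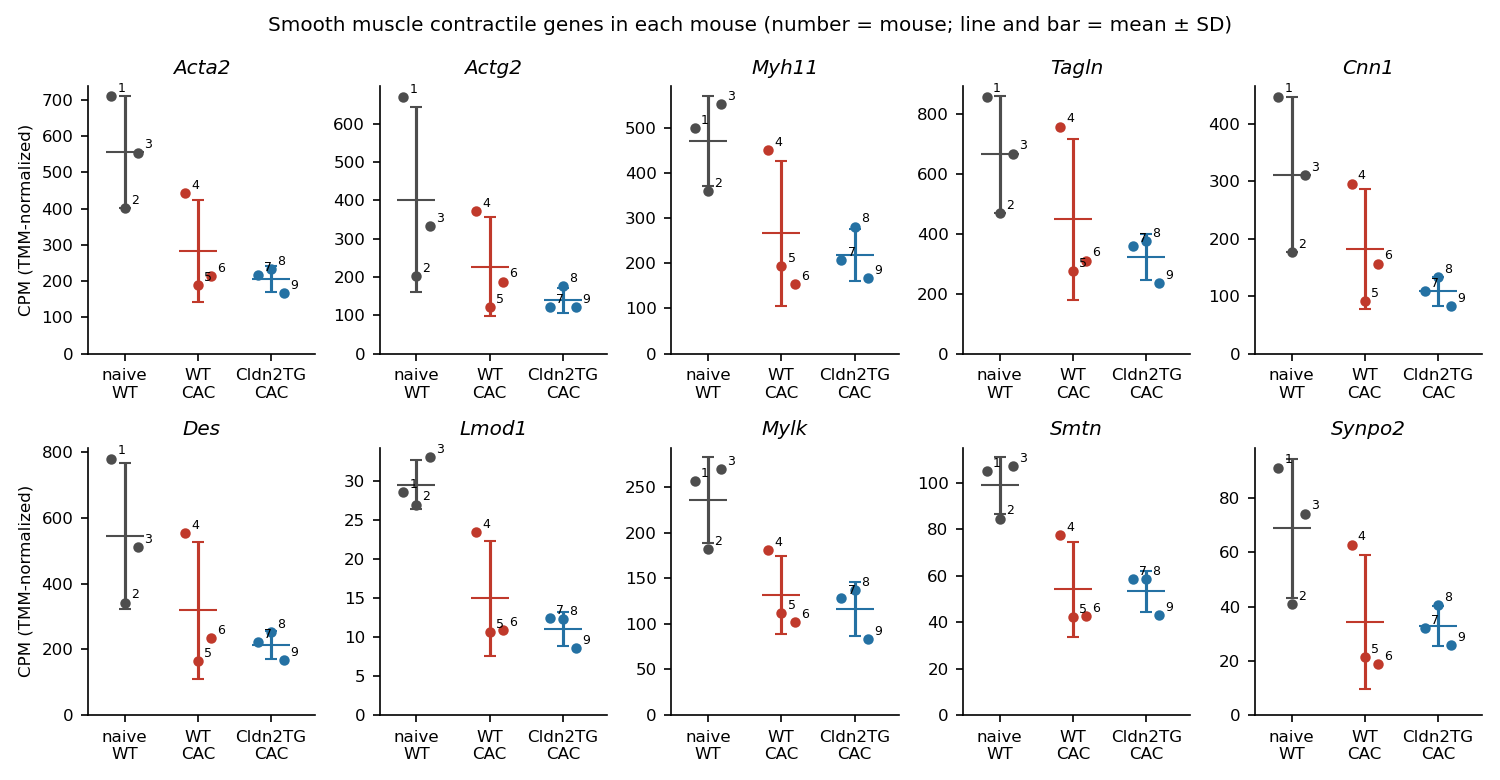
Level of each contractile gene in each mouse, in CPM with TMM factors over the 9 mice (linear axes from 0). Points are mice with their numbers, the horizontal line is the group mean and the bar its SD (n = 3). In every panel mice 7 to 9 lie below mice 1 to 3, and mouse 4 is the highest of the WT CAC mice.

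*Acta2* encodes smooth muscle alpha-actin, the actin of the thin filament that is also made by pericytes and myofibroblasts (chr19:34241090-34255336, minus strand, GRCm38). Its level was 710, 402 and 555 CPM in naive WT mice 1 to 3, 444, 190 and 215 in WT CAC mice 4 to 6, and 218, 234 and 167 in *Cldn2*TG CAC mice 7 to 9. The *Cldn2*TG CAC mice were all below the naive WT mice, whereas WT CAC overlapped with naive WT through mouse 4 and with *Cldn2*TG CAC through mice 5 and 6. Against naive WT, *Acta2* fell by 1.43 ± 0.22 (log2 fold change ± SE) in *Cldn2*TG CAC, a 2.69-fold lower level with an adjusted p of 0.00988 by edgeR. Of its 50-base windows, 0.352% also occur in transcripts of other genes, *Actg1* among them. *Actg2* encodes the gamma-actin of visceral smooth muscle (chr6:83512905-83536265, minus strand). It was at 669, 203 and 332 CPM in naive WT, 371, 120 and 188 in WT CAC, and 120, 176 and 120 in *Cldn2*TG CAC. Naive WT mouse 1 had 3.30 times the level of naive WT mouse 2, the widest spread within naive WT of any member. The log2 fold change of *Actg2* in *Cldn2*TG CAC against naive WT was -1.53 ± 0.51, the most negative of the 10, and its adjusted p of 0.148 missed the threshold. Without naive WT mouse 1 the value was -0.93, less negative than those of *Lmod1* (-1.42), *Acta2* (-1.20), *Cnn1* (-1.15), *Myh11* (-1.05), *Des* (-0.98) and *Mylk* (-0.94). *Lmod1*, leiomodin, starts new actin filaments in smooth muscle (chr1:135324807-135368065, plus strand). Its level was 28.6, 27.0 and 33.0 CPM in naive WT, 23.5, 10.6 and 10.8 in WT CAC, and 12.4, 12.3 and 8.57 in *Cldn2*TG CAC. *Lmod1* varied least among naive WT mice, 1.22-fold from lowest to highest, and neither CAC group overlapped with naive WT. It fell by 1.40 ± 0.16 in *Cldn2*TG CAC against naive WT, 2.64-fold, with the lowest adjusted p of the 10 (0.00135). It passed the threshold there under all 15 alternative settings.

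*Myh11* encodes the heavy chain of smooth muscle myosin, the motor of the thick filament (chr16:14194527-14291408, minus strand). It was at 499, 359 and 551 CPM in naive WT, 450, 193 and 155 in WT CAC, and 206, 281 and 167 in *Cldn2*TG CAC. Mouse 4 was inside the naive WT range, mouse 6 was the lowest of all 9 mice, and the *Cldn2*TG CAC mice were below naive WT. *Myh11* fell by 1.10 ± 0.22 in *Cldn2*TG CAC against naive WT, with an adjusted p of 0.0224. Of its 50-base windows, 0.4% also occur in transcripts of other genes, *Myh9* and *Myh10* among them. *Mylk* encodes the myosin light chain kinase that starts contraction, together with longer forms found in non-muscle cells (chr16:34745210-35002420, plus strand). Its level was 256, 182 and 270 CPM in naive WT, 181, 112 and 102 in WT CAC, and 128, 137 and 82.8 in *Cldn2*TG CAC. Mouse 4 was a hair below naive WT mouse 2, so that neither CAC group overlapped with naive WT. *Mylk* fell by 1.02 ± 0.22 in *Cldn2*TG CAC against naive WT, with an adjusted p of 0.0272. Without naive WT mouse 1, naive WT mouse 3 or *Cldn2*TG CAC mouse 7, neither *Myh11* nor *Mylk* passed the threshold (adjusted p of 0.0584, 0.0817 and 0.0836 for *Myh11*, and 0.0683, 0.0963 and 0.0690 for *Mylk*).

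*Tagln*, *Cnn1* and *Smtn* encode proteins that bind the actin filament. *Tagln*, transgelin or SM22-alpha, was the most abundant member (chr9:45929628-45936058, minus strand). Its level was 859, 470 and 669 CPM in naive WT, 759, 275 and 311 in WT CAC, and 360, 376 and 236 in *Cldn2*TG CAC. Mouse 4 exceeded naive WT mice 2 and 3, while the *Cldn2*TG CAC mice were below all naive WT mice. The log2 fold change of *Tagln* in *Cldn2*TG CAC against naive WT was -1.04 ± 0.27 with an adjusted p of 0.0628, which missed the threshold. *Cnn1*, calponin, restrains the myosin motor (chr9:22099281-22109630, plus strand). It was at 447, 177 and 310 CPM in naive WT, 296, 91.9 and 157 in WT CAC, and 109, 134 and 83.1 in *Cldn2*TG CAC. Its naive WT mice differed 2.53-fold, and mice 7 to 9 were all below them. The log2 fold change of *Cnn1* was -1.52 ± 0.39 with an adjusted p of 0.0763. *Smtn*, smoothelin, marks fully contractile smooth muscle (chr11:3517523-3540612, minus strand). Its level was 105, 84.7 and 107 CPM in naive WT, 77.7, 42.2 and 42.6 in WT CAC, and 58.5, 58.6 and 43.2 in *Cldn2*TG CAC. Neither CAC group overlapped with naive WT, and mice 5 and 6 were lower than every *Cldn2*TG CAC mouse. *Smtn* fell by 0.88 ± 0.14 in *Cldn2*TG CAC against naive WT, with an adjusted p of 0.00574. Genes on the opposite strand cover 4.10% of the exonic length of *Tagln* (*Pcsk7*) and 16.3% of that of *Smtn* (*Gm11946* and *Gm11947*), and the strand setting of the counting is not given in the sources used here, so reads of these stretches cannot be assigned to one gene.

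*Des* and *Synpo2* belong to the framework that holds the filaments. *Des* encodes desmin, the intermediate filament of muscle (chr1:75360329-75368579, plus strand). Its level was 781, 342 and 510 CPM in naive WT, 555, 165 and 235 in WT CAC, and 222, 252 and 167 in *Cldn2*TG CAC. Mouse 4 exceeded naive WT mice 2 and 3, and mice 7 to 9 were below naive WT. The log2 fold change of *Des* in *Cldn2*TG CAC against naive WT was -1.35 ± 0.34 with an adjusted p of 0.0671, and an opposite-strand gene, *Gm15179*, covers 5.86% of its exonic length. *Synpo2*, synaptopodin-2 or myopodin, is an actin-bundling protein of dense bodies and Z-discs (chr3:123076519-123236149, minus strand). It was at 91.3, 40.9 and 74.4 CPM in naive WT, 62.9, 21.5 and 18.8 in WT CAC, and 32.0, 40.5 and 25.8 in *Cldn2*TG CAC. The highest *Cldn2*TG CAC mouse came close to the lowest naive WT mouse, and WT CAC mice 5 and 6 were below mice 7 to 9. The log2 fold change of *Synpo2* in *Cldn2*TG CAC against naive WT was -1.06 ± 0.33, with an adjusted p of 0.103.

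Put on a scale of CPM per kilobase of exonic length, the order of levels in naive WT was *Tagln* (420 ± 123, SD, n = 3), *Acta2* (312 ± 86.5), *Actg2* (258 ± 155), *Des* (145 ± 58.9), *Cnn1* (132 ± 57.1), *Myh11* (70.8 ± 14.99), *Mylk* (23.2 ± 4.66), *Smtn* (22.6 ± 2.84), *Lmod1* (7.48 ± 0.791) and *Synpo2* (5.24 ± 1.95). Neighbours from *Tagln* to *Cnn1* differed by less than the larger of their SDs, as did *Mylk* and *Smtn*. The steps from *Cnn1* to *Myh11*, *Myh11* to *Mylk*, *Smtn* to *Lmod1* and *Lmod1* to *Synpo2* were larger than that. WT CAC kept the same order, from *Tagln* at 283 ± 170 to *Synpo2* at 2.62 ± 1.88 CPM per kilobase. In the *Cldn2*TG CAC group, where *Tagln* was at 204 ± 48.4 and *Synpo2* at 2.49 ± 0.562, only *Smtn* (12.2 ± 2.02) and *Mylk* (11.4 ± 2.87) changed places, by less than their SDs. The ratio of *Actg2* to *Acta2*, in CPM, was 0.942, 0.504 and 0.598 in naive WT, 0.836, 0.635 and 0.875 in WT CAC, and 0.553, 0.752 and 0.723 in *Cldn2*TG CAC. The 3 groups overlapped in the balance of visceral to alpha-actin.

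The members moved together from mouse to mouse. Pearson's r of log2 CPM between pairs of members over the 9 mice was 0.817 to 0.987 with a median of 0.934 over 45 pairs. Taken as deviations from the group means, r was 0.625 to 0.995 with a median of 0.908. These points share the 9 libraries, their depth and their TMM factors. *Acta2* followed the mean of the other 9 members most closely (r = 0.990, n = 9 mice) and *Actg2* least (r = 0.922). In naive WT, mouse 2 was the lowest for all 10 members. In WT CAC, mouse 4 was the highest for all 10, and in *Cldn2*TG CAC, mouse 8 was the highest and mouse 9 the lowest for 9 of 10. Among 13799 genes outside the lists used here, the 5 whose log2 CPM was most like the members' mean over the 9 mice were *Popdc2* (r = 0.988), *Hspb7* (0.982), *Hand2* (0.973), *Akap6* (0.971) and *Tns1* (0.966). *Hspb7* was at 12.6, 6.93 and 9.90 CPM in naive WT, 8.69, 2.52 and 3.55 in WT CAC, and 2.82, 5.02 and 2.51 in *Cldn2*TG CAC. *Tns1*, a focal adhesion protein, was at 82.9, 58.8 and 86.3 CPM in naive WT, 79.7, 38.7 and 33.7 in WT CAC, and 39.9, 52.2 and 28.5 in *Cldn2*TG CAC. Both had mouse 4 within the naive WT range and mice 5 and 6 below it, whereas *Hand2* had mouse 4 at 3.51 CPM, below the lowest naive WT mouse at 3.82. These genes were picked for following the members, so their likeness in pattern is a description.

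The first comparison asks how the colon of WT mice with CAC differs from the naive colon. All 10 contractile genes were lower in WT CAC, by a median log2 fold change of -0.81 (range -0.97 for *Synpo2* to -0.54 for *Tagln*), but 0 of 10 passed an adjusted p of 0.05 in edgeR, with adjusted p from 0.0573 for *Smtn* to 0.410 for *Tagln*. At an unadjusted p under 0.05 there were 4 (*Acta2*, *Lmod1*, *Mylk* and *Smtn*). DESeq2 called the same genes, 4 of 10, and limma voom called 2, *Lmod1* and *Smtn*, while over all genes these tools called 3220 and 2092 against 2310 in edgeR. Over all 15437 genes tested, 15% were called, 6.92% were called lower, 48.0% had a lower estimate and the median log2 fold change was 0.02. Of the 10, 3 had every WT CAC mouse below every naive WT mouse, against 20.3% of all genes. The outcome turned on mouse 4. Without it, 8 of 10 were called lower, all but *Actg2* and *Cnn1*, and the median was -1.39. *Lmod1* then fell by 1.44 (adjusted p = 0.000700) and *Smtn* fell by 1.204 (adjusted p = 0.00114). All calls rose with it, from 2310 of 15437 genes to 4080 of 15872, and the lower calls from 1069 to 1839. Leaving out any other mouse left 0 of 10 called. Over all genes, calls in these fits fell from 2310 to 631, 135 and 404 without naive WT mice 1, 2 and 3. They fell to 1245 and 1062 without WT CAC mice 5 and 6. Without naive WT mouse 1 the estimates of *Actg2*, *Cnn1* and *Des* went from -0.80, -0.75 and -0.75 to -0.21, -0.40 and -0.39, and without WT CAC mouse 5 to -0.49, -0.43 and -0.43. *Tagln* went from -0.54 to -0.32, -0.28 and -0.34 without mice 1, 5 and 6, and *Myh11* from -0.79 to -0.52 without mouse 6.

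The second comparison asks what *Cldn2* overexpression in the epithelium changes in the CAC colon. All 10 estimates were lower in *Cldn2*TG CAC, at a median of -0.47 on the log2 scale, and ranged from -0.77 ± 0.41 (SE) for *Cnn1* to -0.04 ± 0.26 for *Smtn*. None of the 10 passed the threshold in edgeR (adjusted p of 0.337 to 0.954), 0 had an unadjusted p under 0.05, and DESeq2 and limma voom called 0. Of 14888 genes tested, 9.54% were called and 7.35% were called lower. The groups overlapped for all 10 members, whereas 14.3% of all genes had every *Cldn2*TG CAC mouse below every WT CAC mouse. The direction itself rested on mouse 4. Without it the median was 0.09, 8 of 10 estimates were above 0, and 1 of 10 was called. This was *Synpo2*, higher in *Cldn2*TG CAC (log2 fold change 0.69, adjusted p = 0.0359, edgeR). All calls rose in that fit, from 1421 of 14888 genes to 2894 of 15109, of which 919 were higher. *Actg2* (-0.16) and *Cnn1* (-0.20) stayed below 0. SEs were 0.26 to 0.47 on the log2 scale, so a p above the threshold does not show that the CAC groups were alike.

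The third comparison sets *Cldn2*TG CAC against naive WT and shares mice with the other 2 comparisons, so the values are given side by side with no test of their likeness. In edgeR 5 of 10 contractile genes were called, all lower: *Lmod1*, *Smtn*, *Acta2*, *Myh11* and *Mylk*. The called shares over all 15013 genes tested were 10% in either direction and 6.07% lower. The median log2 fold change of the 10 was -1.22, from -1.53 for *Actg2* to -0.88 for *Smtn*, against a median of 0.0023 over all genes, and 5.79% of all genes had a log2 fold change of -1 or below. All 10 had an unadjusted p under 0.05 and all 10 had every *Cldn2*TG CAC mouse below every naive WT mouse, which held for 16.3% of all genes. DESeq2 called 10 of 10 and limma voom 9, all but *Synpo2*, with 1794 and 1382 called over all genes. Fitted with all 9 mice sharing 1 estimate of spread, only *Lmod1* was called, while all calls went from 1501 of 15013 genes to 445 of 15712. Without naive WT mouse 3 or *Cldn2*TG CAC mouse 7 the count was 3 (*Lmod1*, *Smtn* and *Acta2*). Without naive WT mouse 1 it was 4 with a median of -0.96, holding the same 3 genes but neither *Myh11* nor *Mylk*. Without naive WT mouse 2, the naive mouse with the lowest levels, it was 9. Over all genes 525, 1383, 958 and 1104 were called in these fits.

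**Figure D2:**
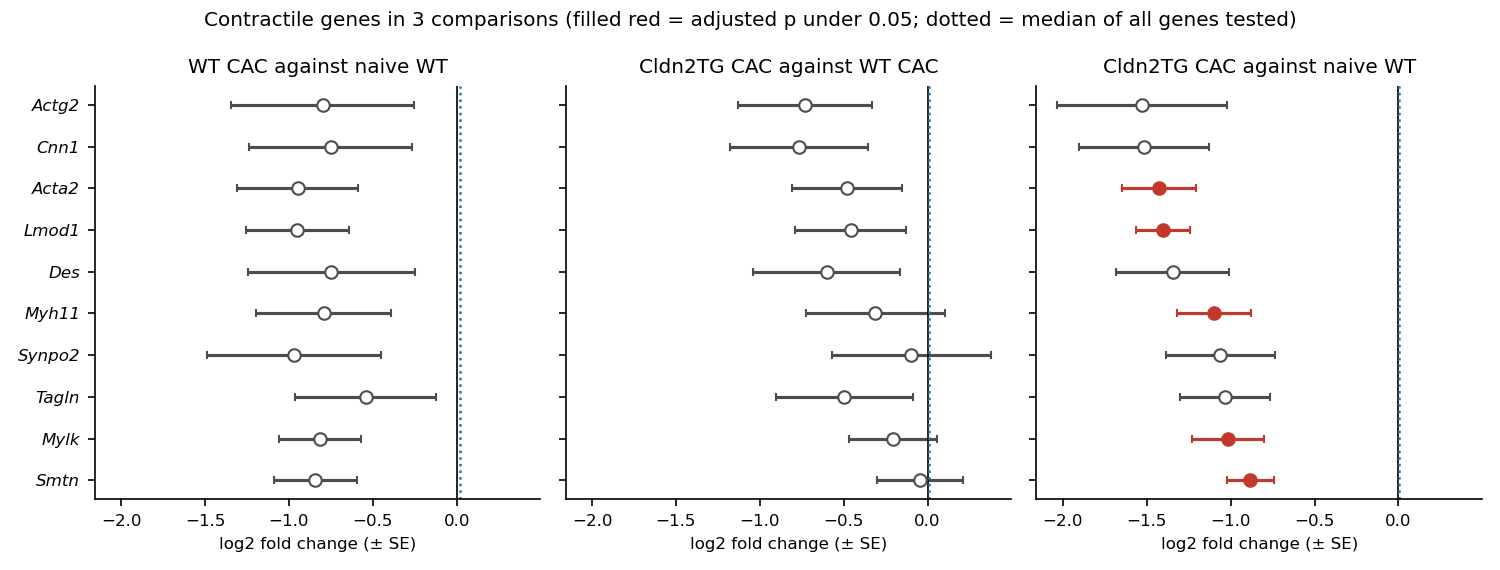
Log2 fold change of the 10 contractile genes in 3 comparisons from edgeR (x axis; points are estimates and bars SEs, 3 mice a group). Filled red points have an adjusted p under 0.05, and the dotted line is the median of all genes tested. Every estimate is below 0, with 0, 0 and 5 genes called from left to right.

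**Figure D3:**
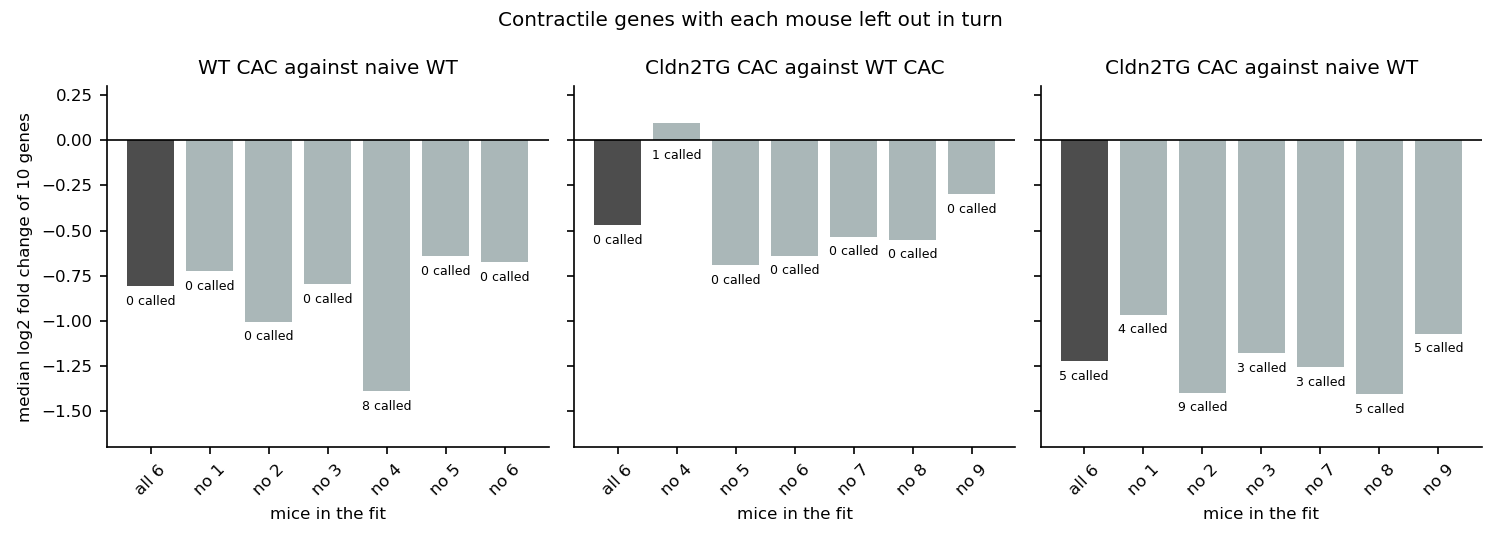
Median log2 fold change of the 10 contractile genes (bars) with all 6 mice in the fit and with each mouse left out in turn, with the number of genes called lower or higher printed at each bar. Without mouse 4 the left comparison deepens from -0.81 to -1.39 with 8 genes called, and the middle one goes from -0.47 to 0.09.

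The wider smooth muscle list holds 50 other genes in 7 classes of the same machinery, with none of the 10 members among them. In WT CAC against naive WT, 6 of 50 were called lower and 2 higher, with a median log2 fold change of -0.60 (6.92% of all genes were called lower). Between the CAC groups, 4 of 48 tested were called lower in *Cldn2*TG CAC and 1 higher, with a median of -0.19 (7.35% of all genes were called lower). In *Cldn2*TG CAC against naive WT, 25 of 50 were called lower and 0 higher (35 had an unadjusted p under 0.05), with a median of -0.80, beside 6.07% called lower over all genes. DESeq2 also called 25 and limma voom 23, and with all 9 mice in the fit the count was 4, while all calls were 1794, 1382 and 445. In *Cldn2*TG CAC against naive WT the count was 18, 24 and 8 without naive WT mice 1, 2 and 3, and 15, 16 and 14 without *Cldn2*TG CAC mice 7, 8 and 9, while all calls, 1501 with every mouse, were 958, 1104 and 525, and 1383, 615 and 813. In WT CAC against naive WT the 8 calls in either direction became 1, 0 and 1 without naive WT mice 1, 2 and 3, 27 without mouse 4, and 4 and 2 without mice 5 and 6, while all calls went from 2310 to 631, 135, 404, 4080, 1245 and 1062. Between the CAC groups the 5 calls became 8, 2 and 3 without mice 4, 5 and 6, and 2, 0 and 0 without mice 7, 8 and 9, while all calls went from 1421 to 2894, 555, 805, 460, 58 and 108.

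**Figure D4:**
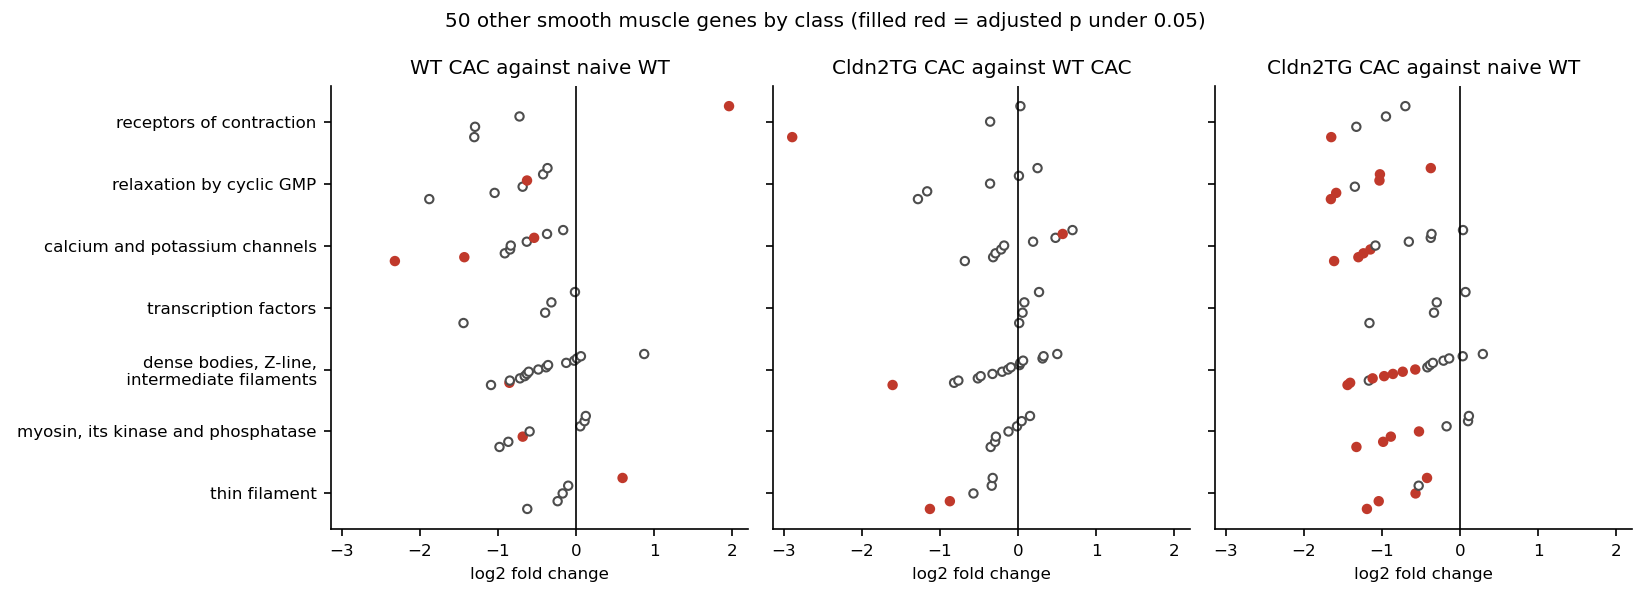
Log2 fold change of the 50 genes of the wider list by class (rows) in 3 comparisons, from edgeR. Each point is 1 gene, and filled red points have an adjusted p under 0.05. Red points are few in the left and middle panels and number 25, all below 0, on the right.

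By class, the thin filament genes other than the members were called lower in 4 of 5 cases in *Cldn2*TG CAC against naive WT. *Tpm1*, a tropomyosin that lies along actin in muscle and non-muscle cells, fell by 0.42 (adjusted p = 0.0499) and *Tagln2*, the transgelin of non-muscle cells, by 0.57 (adjusted p = 0.00881). *Cnn2*, a calponin also made by leukocytes and fibroblasts, went against its class in WT CAC against naive WT, where it rose by 0.59 (adjusted p = 0.0410), and it fell with its class by 1.13 in *Cldn2*TG CAC against WT CAC (adjusted p = 0.0134). Of the myosin class, 4 of 7 were called lower in *Cldn2*TG CAC against naive WT. *Myl9*, the regulatory light chain of smooth muscle myosin, fell by 1.33 (adjusted p = 0.0176), whereas *Myl6*, the essential light chain found in nearly all cells, had a log2 fold change of 0.10 (adjusted p = 0.555). Of the dense body and Z-line class, 7 of 15 were called lower. *Csrp1*, a LIM protein of actin filaments, fell by 0.86 (adjusted p = 0.0267), and *Fhl1*, another LIM protein, had -0.21 (adjusted p = 0.664).

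Of the transcription factors, 0 of 4 were called in any comparison by edgeR. At an unadjusted p under 0.05 there were 3 of the 4 in each CAC group against naive WT, all with estimates below 0, and 0 between the CAC groups. *Myocd*, which encodes myocardin, had a log2 fold change of -1.44 (adjusted p = 0.132) in WT CAC and -1.16 (adjusted p = 0.123) in *Cldn2*TG CAC against naive WT. *Mrtfb*, a coactivator of *Srf*, had -0.33 (adjusted p = 0.0773) in *Cldn2*TG CAC against naive WT, and *Srf* itself had 0.07 (adjusted p = 0.692). Of the calcium and potassium channel class, 4 of 9 were called lower in that comparison. *Jph2*, which ties the sarcoplasmic reticulum to the cell surface, fell by 1.15 (adjusted p = 0.0107). *Itpr1*, the calcium release channel of many cell types, fell by 0.54 in WT CAC against naive WT (adjusted p = 0.0330), rose by 0.57 in *Cldn2*TG CAC against WT CAC (adjusted p = 0.0357) and had 0.04 in *Cldn2*TG CAC against naive WT. Of the genes of relaxation by cyclic GMP, 5 of 6 were called lower in *Cldn2*TG CAC against naive WT. *Pde5a*, which breaks down cyclic GMP, fell by 0.37 (adjusted p = 0.0356), and *Mrvi1*, the kinase substrate also named *Irag1*, by 1.03 (adjusted p = 0.0452). Of the receptors, 1 of 4 was called lower there, the muscarinic receptor *Chrm2*, which fell by 1.65 (adjusted p = 0.0208). *Ednra*, the endothelin receptor, rose by 1.96 in WT CAC against naive WT (adjusted p = 0.0145) and fell by 2.89 in *Cldn2*TG CAC against WT CAC (adjusted p = 0.0260), the opposite of its class in the first.

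Other cells of the wall were measured in the same samples, and their part in the levels of the contractile genes was not tested. Enteric neurons, whose ganglia lie between and beside the muscle layers, had 7 of 7 tested markers called lower in *Cldn2*TG CAC against naive WT (median log2 fold change -1.77). The summed level of their 8 markers was 69.4 to 114 CPM in naive WT, 44.9 to 56.6 in WT CAC and 19.5 to 35.8 in *Cldn2*TG CAC. The 3 groups did not overlap, but the gap between the CAC groups rested on *Ret*, a receptor also made by other cells, which was at 6.96, 31.1 and 29.1 CPM in WT CAC and 3.17, 2.99 and 2.59 in *Cldn2*TG CAC. Without *Ret*, a choice made after seeing the data, the sums were 103, 62.1 and 93.3 CPM in naive WT, 45.8, 13.8 and 27.5 in WT CAC and 32.7, 16.5 and 19.8 in *Cldn2*TG CAC. The CAC groups then overlapped, both stayed below naive WT, and mouse 4 was the high WT CAC mouse. In *Cldn2*TG CAC against naive WT, *Vip*, a neuropeptide, fell by 2.43 (adjusted p = 0.0464), and *Ret* fell by 1.77 (adjusted p = 0.00227). Enteric glia had 3 of 3 markers called lower in *Cldn2*TG CAC against naive WT. Their summed level was 3.62 to 7.27 CPM in naive WT, 1.15 to 3.96 in WT CAC and 0.886 to 1.77 in *Cldn2*TG CAC. Mouse 4 was again the high WT CAC mouse for glia. *Gfap* fell by 2.16 (adjusted p = 0.0102) and *S100b* fell by 1.92 (adjusted p = 0.0272) in *Cldn2*TG CAC against naive WT.

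Pericytes and activated fibroblasts also make *Acta2*. Pericytes had 4 of 6 markers called lower in *Cldn2*TG CAC against naive WT, 2 in WT CAC against naive WT and 2 in *Cldn2*TG CAC against WT CAC, with a summed level of 72.4 to 91.1 CPM in naive WT, 45.3 to 56.3 in WT CAC and 25.04 to 40.0 in *Cldn2*TG CAC. *Rgs5* fell by 1.69 (adjusted p = 0.00337) and *Pdgfrb* by 0.89 (adjusted p = 0.0215) in *Cldn2*TG CAC against naive WT. In WT CAC mouse 4 the pericyte sum was 54.0 CPM, below every naive WT mouse. Of the contractile genes, 7 of 10 were at or above the lowest naive WT mouse in mouse 4. Fibroblast markers had a summed level of 309 to 446 CPM in naive WT, 474 to 1168 in WT CAC and 196 to 278 in *Cldn2*TG CAC. In WT CAC against naive WT, 0 of 7 were called by edgeR, although all 7 estimates were above 0 and 4 had an unadjusted p under 0.05. *Col3a1* had a log2 fold change of 0.87 (adjusted p = 0.118) and *Dcn* 1.27 (adjusted p = 0.0519). Against WT CAC, all 7 estimates were below 0 and 2 of 7 were called lower in *Cldn2*TG CAC, *Col1a2* and *Col3a1*, the latter by 1.74 (adjusted p = 0.0353). Against naive WT, 6 of 7 estimates were below 0 in *Cldn2*TG CAC with a median of -0.86, and 1 was called, *Col1a2*, which fell by 0.86 (adjusted p = 0.0215). The estimates of the contractile genes thus had the opposite sign to those of the fibroblast genes in WT CAC against naive WT, and mostly the same sign in the other 2 comparisons.

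Endothelial markers had 3 of 4 called lower in *Cldn2*TG CAC against naive WT, at a summed 24.7 to 28.9 CPM in naive WT, 21.7 to 31.3 in WT CAC and 10.5 to 14.2 in *Cldn2*TG CAC. *Pecam1* fell by 0.91 (adjusted p = 0.0179) and *Cdh5* by 1.69 (adjusted p = 0.00322). Leukocyte markers were at a summed 38.9 to 86.9 CPM in naive WT, 107 to 191 in WT CAC and 20.98 to 47.8 in *Cldn2*TG CAC, with 3 of 6 called higher in WT CAC against naive WT and 4 of 6 called lower in *Cldn2*TG CAC against WT CAC. *Lyz2* rose by 1.40 (adjusted p = 0.0425) in the former and fell by 2.25 (adjusted p = 0.0188) in the latter. *Ptprc*, the pan-leukocyte gene, rose by 1.31 (adjusted p = 0.0297) and fell by 1.81 (adjusted p = 0.00777). Within WT CAC, mouse 4 had the lowest leukocyte sum and the highest contractile sum, but the order within the other groups was different. In naive WT, mouse 1 was the highest and mouse 2 the lowest for both sums, and in *Cldn2*TG CAC, mouse 9 was the lowest for both. Of 10 markers of striated muscle, 7 were under the filter, and *Myh4* had no count in any mouse. Of those tested, *Acta1* was at 3.69 to 13.5 CPM and *Tnnt2* at 6.13 to 17.9 CPM, and none of the 3 tested were called in any comparison by edgeR (0, 0 and 1 at an unadjusted p under 0.05 in the order given above). *Tnnt2* and *Acta1*, the most abundant of that list, had log2 fold changes of -0.13 (adjusted p = 0.774) and 0.73 (adjusted p = 0.298) in *Cldn2*TG CAC against naive WT.

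The epithelial markers give a second scale for contractile RNA. Their summed level was 15861 to 17420 CPM in naive WT, 16099 to 19392 in WT CAC and 17335 to 21435 in *Cldn2*TG CAC. Of the 8, 0 were called in the comparisons that involve WT CAC (3 and 0 at an unadjusted p under 0.05), and 2 were called higher in *Cldn2*TG CAC against naive WT, *Krt8* by 0.43 (adjusted p = 0.0384) and *Cldn7* by 0.31 (adjusted p = 0.0483). *Krt19* had 0.22 (adjusted p = 0.259). Per 100 CPM of epithelial markers, the 10 contractile genes were at 28.0, 13.9 and 19.6 CPM in naive WT mice 1 to 3, 16.6, 6.77 and 8.91 in WT CAC mice 4 to 6, and 8.46, 8.35 and 5.13 in *Cldn2*TG CAC mice 7 to 9. On this scale the *Cldn2*TG CAC mice lay below all naive WT mice and the WT CAC mice overlapped both groups. The scale divides the same contractile sums by epithelial sums that varied less, so it is not an independent check.

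**Figure D5:**
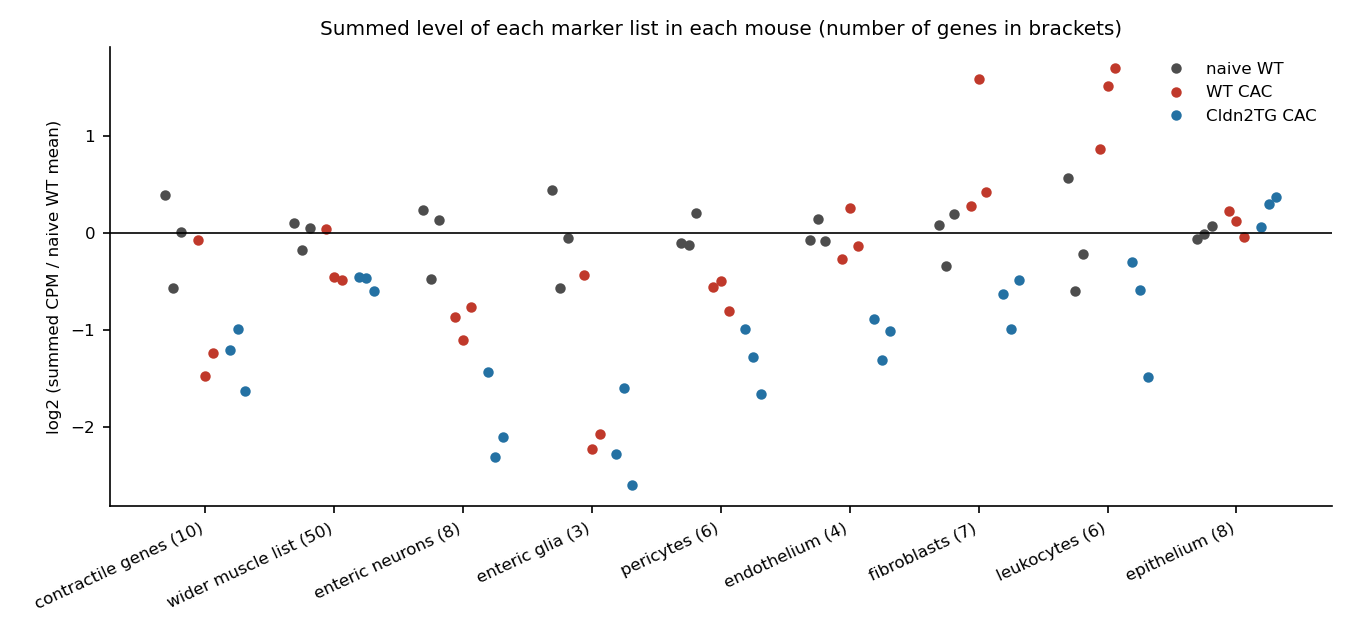
Summed CPM of each marker list in each mouse, as log2 of its ratio to the naive WT mean (y axis; each point is 1 mouse, coloured by group, and 0 is the naive WT mean). The *Cldn2*TG CAC points of the contractile genes, the wider muscle list, enteric neurons, enteric glia, pericytes, endothelium and fibroblasts lie below all naive WT points, and WT CAC fibroblast and leukocyte points lie above them.

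Paralogs of the members that are made by non-muscle or striated muscle cells were mixed. Of 7 tested, 0 were called lower in any comparison by edgeR and 1, 0 and 2 were called higher, in the order given above (2, 3 and 3 had an unadjusted p under 0.05 in either direction). *Actb*, the cytoplasmic beta-actin, had a log2 fold change of 0.30 (adjusted p = 0.209) in *Cldn2*TG CAC against naive WT and *Myh9*, the non-muscle myosin heavy chain, had -0.14 (adjusted p = 0.323), against -1.43 for *Acta2* and -1.10 for *Myh11*. *Myh10*, another non-muscle myosin heavy chain, had -1.10 (adjusted p = 0.0748), as low as *Myh11*, and -1.14 (adjusted p = 0.0999) in *Cldn2*TG CAC against WT CAC. *Actg1*, the cytoplasmic gamma-actin, rose by 0.40 in *Cldn2*TG CAC against naive WT (adjusted p = 0.0371). *Cnn3*, a calponin of non-muscle cells, rose by 1.24 in WT CAC against naive WT (adjusted p = 0.0222) and by 0.69 in *Cldn2*TG CAC against naive WT (adjusted p = 0.00493), where *Cnn1* had -1.52.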

How the data were processed

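RNA-Seq of colon was measured in 9 mice. The authors used a Quick-RNA Mini-Prep kit, a NovaSeq6000 sequencer and counts of reads on genes by featureCounts from Subread. The study's methods name TopHat2 for mapping, and the submitters' processing notes name HISAT2 and GRCm38. Versions, annotation and strand setting are not given in the sources used here. The deposited values are whole-number counts for 47729 genes in 18 columns, 2 lanes for each library, without normalization, beside the exonic length of each gene. The members and the gene lists were chosen with earlier results of these data known.

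Lanes were added after they agreed within sampling noise (chi-square divided by its degrees of freedom, 0.995 to 1.06, on genes with at least 20 counts). Symbols came from GENCODE M21 (47310 identifiers; 419 have none), with *Irag1* listed as *Mrvi1*. Each comparison was fitted on its 6 mice with edgeR 4.0.16 in R 4.3.3: TMM normalization, filterByExpr (minimum count 10, minimum total 15) and two-sided quasi-likelihood tests with robust estimation. P-values were adjusted by Benjamini-Hochberg over all genes tested, and an adjusted p under 0.05 is called. SEs were derived from the test statistic. The labels number the libraries and name no animals, and p-values measure the spread between these samples. Levels are given as CPM, with TMM factors from the 9 mice together, and likeness used log2 CPM (prior count 2) of genes with a mean of at least 1 CPM. Uniqueness was checked by matching 50-base windows exactly against all other GENCODE M21 transcripts. Genes named are the 10 members, the 2 most abundant genes of each list or class, any that were called against the direction of their class, and the 5 most alike; *Col1a2*, *Cldn7*, *Etv1*, *Myh10*, *Myocd*, *Actg1*, *Cnn3*, *Xist* and *Ddx3y* were named after their values were seen, as were genes listed by promoter match. Some genes of the marker lists are not reported here and were left out of them. Alternatives were DESeq2 1.42.0, limma 3.58.1 voom, other scalings and filters, all 9 mice, single lanes and each mouse left out. The fits were tested on simulated data with 100 genes changed at each of 2 sizes. Tables and plots were made with Python 3.11.15 and matplotlib 3.10.9.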

Additional observations from a re-analysis of the deposited data

How the results depend on the processing

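Across 15 alternatives (DESeq2, limma voom, library size only, upper-quartile normalization, no filter, a floor of 10 counts per mouse, 1 fit of the 9 mice, single lanes and each mouse left out), all 10 contractile genes stayed lower in both comparisons with naive WT. The counts called, 0, 0 and 5 of 10 in the order used above, moved as follows. In WT CAC against naive WT the count was 4 with DESeq2, 2 with limma voom, 2 with all 9 mice, and 0 to 8 with a mouse left out, while over all genes 2310 calls became 3220, 2092, 3171 and 135 to 4080. In *Cldn2*TG CAC against WT CAC it was 0 to 1 with a mouse left out and 0 otherwise. Over all genes 1421 calls became 2072 (DESeq2), 1090 (limma voom), 2136 (all 9 mice) and 58 to 2894 (a mouse left out). In *Cldn2*TG CAC against naive WT the count was 10 with DESeq2, 9 with limma voom, 1 with all 9 mice and 3 to 9 with a mouse left out. Over all genes 1501 calls became 1794, 1382, 445 and 525 to 1383 there. The wider list, 8, 5 and 25 called, gave 15 with DESeq2, 13 with all 9 mice and 5 on lane 2 alone (1803 of all genes) in the first comparison, 3 on lane 2 alone (996, from 1421) in the second and 4 with all 9 mice in the third, and 0 to 27, 0 to 8 and 8 to 24 with a mouse left out. Fits without 1 mouse have fewer samples and tests on 1 lane fewer counts; beyond that the cause was not tested.

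In *Cldn2*TG CAC against WT CAC the log2 fold change turned above 0 with limma voom for *Smtn* (0.0074) and *Synpo2* (0.11), without mouse 9 for the same pair, and without mouse 4 for 8 genes. With a mouse left out it ranged from -1.05 to -0.16 for *Actg2*, -1.10 to -0.20 for *Cnn1*, -0.71 to 0.017 for *Acta2*, -0.58 to 0.31 for *Myh11*, -0.76 to 0.13 for *Tagln*, -0.93 to 0.082 for *Des*, -0.67 to 0.038 for *Lmod1*, -0.35 to 0.11 for *Mylk*, -0.21 to 0.32 for *Smtn* and -0.38 to 0.69 for *Synpo2*. With library size only, the median of all genes in *Cldn2*TG CAC against naive WT shifted to -0.11 and the calls from 589 higher and 912 lower to 276 higher and 1310 lower, with 5 of 10 contractile genes called at a median of -1.33. In *Cldn2*TG CAC against WT CAC that scaling gave 218 higher and 1294 lower, from 326 and 1095. With 3 mice a group, the simulated test on 14829 genes of *Cldn2*TG CAC against naive WT recovered 66 of 100 genes changed by a log2 fold change of 1, against 48 and 47 of 100 in the comparisons with WT CAC, so changes of that size can be missed. No paired analysis was possible because the replicate numbers are not shared between groups.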

Other observations

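Some lists were measured beside the contractile genes and not described above. The interstitial cells of Cajal, the pacemaker cells that lie among gut smooth muscle, had markers that parted ways: *Kit*, their receptor tyrosine kinase, which mast cells also make, fell by 1.23 in WT CAC against naive WT (adjusted p = 0.00554, edgeR) and rose by 0.88 in *Cldn2*TG CAC against WT CAC (adjusted p = 0.0196), whereas *Ano1*, a chloride channel also made by epithelia, had -0.03 (adjusted p = 0.937) and -0.06 (adjusted p = 0.927). *Etv1* was 1 of 3 of these markers called lower in *Cldn2*TG CAC against naive WT. Of 5 markers of colon epithelium, 2 were called lower in WT CAC against naive WT and 2 higher in *Cldn2*TG CAC against WT CAC. *Car4*, a carbonic anhydrase of mature colonocytes, fell by 1.65 (adjusted p = 0.0223) in the former and rose by 1.90 (adjusted p = 0.0131) in the latter, and *Muc2*, the goblet cell mucin, had -0.19 (adjusted p = 0.660) and -0.28 (adjusted p = 0.460). Within WT CAC, mouse 4 had the highest summed level of these markers (6464 CPM, against 3979 and 3239 in mice 5 and 6), as it did for the contractile genes, whereas within *Cldn2*TG CAC mouse 9 had the highest sum of these markers (8978 CPM) and the lowest of the contractile genes.

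Mesothelium and fat lie outside the muscle coat. Of mesothelial markers, 1 of 3 tested was called higher in WT CAC against naive WT, *Msln*, which rose by 2.46 (adjusted p = 0.0189) and fell by 3.46 in *Cldn2*TG CAC against WT CAC (adjusted p = 0.0312). *Upk3b*, the other abundant one, had -2.09 (adjusted p = 0.117) in WT CAC against naive WT. Of 4 adipocyte markers, 0 were called in any comparison by edgeR (1, 0 and 0 at an unadjusted p under 0.05), and their summed level was 26.1 to 132 CPM in naive WT, 6.09 to 34.5 in WT CAC and 5.98 to 96.3 in *Cldn2*TG CAC. The highest value in naive WT was in mouse 2, which had the lowest contractile level of its group, and the highest in *Cldn2*TG CAC was in mouse 8 (96.3 CPM, against 8.75 and 5.98), which had the highest contractile level of its group. *Cfd* had -2.21 (adjusted p = 0.302) and *Fabp4* -1.03 (adjusted p = 0.279) in WT CAC against naive WT.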
